A study of Homo sapiens with 12 samples.

Results

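The cytochrome P450 (CYP), UDP-glucuronosyltransferase (UGT), glutathione S-transferase (GST) and sulfotransferase (SULT) enzymes were examined in Huh7 cells, together with 4 partner genes, POR, CYB5A, EPHX1 and EPHX2. Members were taken by symbol from the probe annotation of the array: the numbered CYP genes, UGT1 and UGT2, GSTs of the A, K, M, O, P and T classes, MGST1 to MGST3 and SULT1 to SULT4, with 5 pseudogenes (8 probes) left out. This gave 103 of the 18852 genes that the annotation names, read by 160 of the 48803 probes on the array. CYP2C19 was matched to no probe and is not analysed here. Huh7 is an established human hepatocellular carcinoma line of well-differentiated type. The siTRPC1 cells received a plasmid that makes a short RNA against TRPC1, a subunit of calcium-permeable channels, and the control cells received the same plasmid without the insert. Cells of both groups were given 2 µg of plasmid, which also carries GFP, and RNA was taken at 48 h from whole transfected cultures, not from clones, so that cells without plasmid were present in both groups. There were 6 siTRPC1 and 6 control samples, each on 1 array. The study left replicate 5 of each group out because its TRPC1 values on the array and by PCR correlated poorly. Fitted differences here are of the other 5 against 5 unless all 12 arrays are named. The labels do not say whether samples came from separate cultures, so p-values measure only the spread between these samples, which may be technical.

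These enzymes are the main machinery by which hepatocytes handle drugs, pollutants, steroids, bile acids and fat-soluble vitamins. In the membrane of the endoplasmic reticulum, CYPs add oxygen to a substrate with electrons from POR and, for some reactions, cytochrome b5 (CYB5A). Epoxide hydrolases (EPHX1 and EPHX2) open the epoxides that can result. UGTs, GSTs and SULTs then attach glucuronic acid, glutathione or sulfate, which makes the product easier to excrete. In the adult liver many of these genes are strongly expressed, and hepatoma lines in culture are known to keep them only in part.

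Array values below are normalized log2 intensities, and a difference is the mean of siTRPC1 minus the mean of control cells on that scale. Since each probe has its own brightness for a given amount of RNA, the level of a probe was set only against the same probe on other arrays. A probe counted as detected when its detection p, which compares its signal with the negative controls of the same array, was under 0.01 on at least 5 of the 12 arrays. On this basis 13102 of the 48803 probes (26.8%) were tested. Mean signal per array was 566 to 688 in siTRPC1 and 457 to 642 in control samples, with control 1 and control 2 lowest at 480 and 457 and the other 4 controls at 590 to 642. The 18 hepatocyte and hepatoma markers with a probe were all detected, ALB, APOB and AFP among them, and 3 of 4 cholangiocyte genes were. Of the other lists, 3 of 5 leukocyte genes were detected (CD68, CD14 and LYZ, but not PTPRC and CD3E), 1 of 5 endothelial genes (PECAM1, but not VWF and CDH5) and 2 of 7 fibroblast genes (COL1A2 and PDGFRB, but not COL1A1 and DCN), and none of them passed the test between groups. Over all 5 lists 2 of 38 tested probes passed (5.26%, against 1.25% of all 13102 probes), TTR of the hepatocyte list (0.24 higher in siTRPC1 cells, limma adjusted p = 0.0498) and EPCAM of the cholangiocyte list (0.37 higher, adjusted p = 0.0258). Log2 values were also summed on each of the 12 arrays over all probes of a list, undetected probes included. For the hepatocyte list this sum was 350.6 to 353.7 in siTRPC1 and 347.4 to 354.2 in control samples. For the cholangiocyte list it was 44.56 to 45.76 in siTRPC1 and 44.33 to 46.04 in control samples. Such a sum cannot settle whether single markers differ. The part of these markers in the results below was not tested. TRPC1 itself was lower in all 5 siTRPC1 samples (8.73, 8.56, 8.50, 8.57 and 8.60) than in all 5 control samples (8.77, 8.74, 8.79, 8.75 and 8.82), a difference of -0.18 ± 0.096 (SE), which did not pass limma's test across all probes (adjusted p = 0.344). Replicate 5, left out of the fit, had 8.85 in siTRPC1 and 9.05 in control.

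Of the 103 genes, 36 (35.0%) were detected and 67 were not. The division was wide: by its best probe, a gene was detected on all 12 arrays in 33 cases and on no array in 58, with only 3 genes on 5 to 11 arrays and 9 on 1 to 4. Of the 160 probes, 43 were detected on 12 arrays, 4 on 5 to 11, 13 on 1 to 4 and 100 on none. Thus 47 of the 160 counted as detected, where 13102 of all 48803 probes (26.8%) did. Of those 13102 probes, 11422 were detected on all 12 arrays, so most detected probes of the whole array were too. The probes just inside the threshold were those of UGT2B4 (5 arrays), SULT1C2 (6) and UGT2B11 (7 and 8), and just outside lay CYP2S1 (4 arrays), CYP27B1 (3) and GSTM4 (3 and 2). The 13 probes detected on 1 to 4 arrays were over the threshold in both groups in 5 cases, on siTRPC1 arrays alone in 4 and on control arrays alone in 4. Of the 67 genes called not detected, 58 thus had no probe over the threshold on any array and 9 had one on 1 to 4 arrays, and RNA of any of them may still be present below that level.

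**Figure D1:**
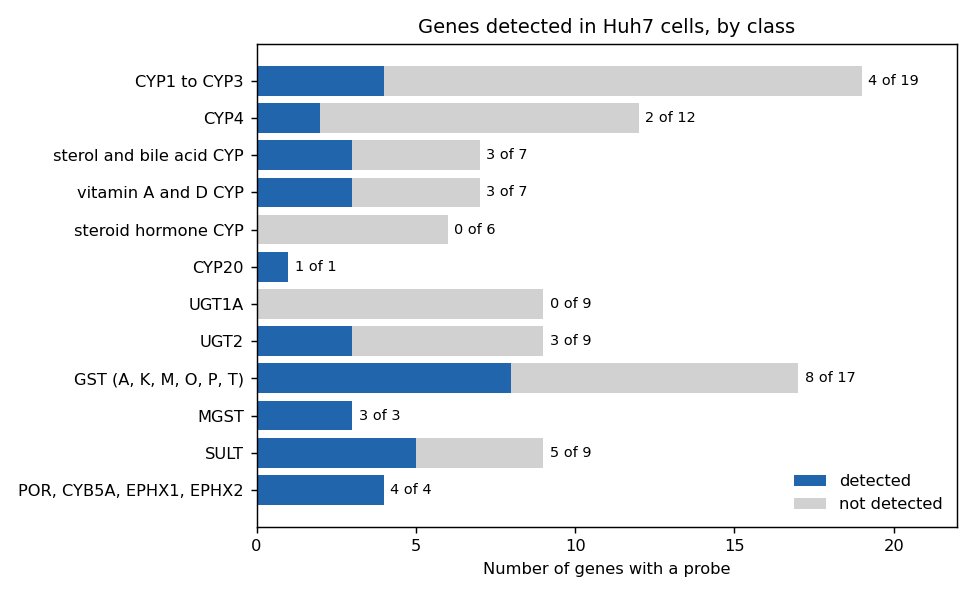
Number of genes with a probe on the array (horizontal axis), by class, split into detected (blue) and not detected (grey) in Huh7 cells. All 4 partners and all 3 MGST genes were detected, and 0 of 9 UGT1A and 0 of 6 steroid hormone CYP genes.

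Among the CYP genes, 13 of 52 were detected. The drug- and xenobiotic-metabolizing families CYP1 to CYP3 had 4 of 19. These were CYP1A1, which oxidizes aromatic hydrocarbons, CYP2C8, which acts on paclitaxel, CYP2E1, the ethanol-inducible form, and CYP2J2, which makes epoxides of arachidonic acid. The enzymes best known for drug clearance in the adult liver were at background. CYP3A4, the main drug-oxidizing enzyme there, had background-subtracted intensities between -19.0 and 17.8 and a detection p between 0.213 and 0.781 over the 12 arrays. CYP1A2, which acts on caffeine, lay between -34.2 and 15.6, CYP2A6, which acts on nicotine, between -38.8 and 8.31, and the 2 probes of CYP2B6 between -31.9 and 28.4. None of the 4 CYP3A genes was detected: CYP3A7, the fetal form, reached 76.3 at most (lowest detection p 0.021) and CYP3A5 39.2 (lowest 0.062). CYP2D6, which acts on codeine, had 1 probe detected on 2 arrays, 1 of each group, and CYP1B1 was detected on 1 control array.

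In the sterol and bile acid group, 3 of 7 genes were detected, and these were CYP27A1, the sterol 27-hydroxylase of mitochondria, CYP39A1, an oxysterol 7-hydroxylase, and CYP51A1, the demethylase of lanosterol in cholesterol synthesis. CYP7A1, the rate-limiting enzyme of bile acid synthesis, was at background (-24.1 to 16.5, lowest detection p 0.191), as was CYP8B1, which sets the share of cholic acid (-40.6 to 34.2, lowest 0.086). CYP7B1 and CYP46A1 were detected on 0 arrays. The vitamin A and D group had 3 of 7: the retinoic acid hydroxylases CYP26A1 and CYP26B1 and the vitamin D 25-hydroxylase CYP2R1. CYP24A1, which inactivates vitamin D, was detected on 0 arrays, and CYP27B1, which activates it, on 3. None of the 6 steroid hormone enzymes was detected, including CYP17A1 and the aromatase CYP19A1, whose 4 probes were all at background. Of the 12 CYP4 genes, fatty acid and eicosanoid hydroxylases, only CYP4F3 and CYP4F12 were detected. CYP4F2 and CYP4A11 were detected on 0 arrays. In RefSeq gene order CYP4F22, CYP4F8, CYP4F3 and CYP4F12 are neighbours, so that the 2 detected members adjoin each other.

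The conjugating families differed in how many members were detected. None of the 9 UGT1A genes was, and UGT1A1, the bilirubin transferase, was over the threshold on 1 control array only (highest intensity 135). In the UGT2 cluster, 3 of 9 genes were detected, UGT2B17 on all 12 arrays and UGT2B11 and UGT2B4 on 5 to 8. UGT2B7, which acts on morphine, and UGT2B15, an androgen transferase like UGT2B17, were detected on 0 arrays. Of the 17 GST genes, 8 were detected: GSTA1, GSTA2, GSTA4, GSTK1, GSTM1, GSTM2, GSTO1 and GSTP1. The 3 GSTT genes were not, and the GSTT1 probe never rose above the median of the negative controls (detection p 0.762 to 0.996). The 3 membrane-bound MGST genes were detected on all 12 arrays. Of the 9 SULT genes, 5 were detected: SULT1A1, the main phenol sulfotransferase, SULT1C2, SULT1C4, SULT2A1, which sulfates dehydroepiandrosterone and bile acids, and SULT2B1, which sulfates cholesterol. SULT1E1, the estrogen sulfotransferase, and SULT1B1, which acts on thyroid hormones, were on 0 arrays. POR, CYB5A, EPHX1 and EPHX2 were detected on all 12.

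For 39 of the 103 genes the array has several probes, and these did not always give the same answer. In 11 of the 39 at least 1 probe was detected and at least 1 was not, in 22 none was, and in 6 all were. CYP4F3 is an example, with ILMN_1736190 detected on 12 arrays and ILMN_2089484 on 0. UGT2B17 had 1 detected and 3 undetected probes, and SULT1A1 had 2 detected and 3 undetected. The probe sequences were not used here, so which transcripts of a gene, or which near-identical relatives (GSTA1 and GSTA2, the UGT2B or the SULT1A genes), each probe also binds was not tested.

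The control plasmid made no short RNA, so silencing of TRPC1 cannot be told apart from other effects of the short RNA in siTRPC1 cells. Differences of these enzymes between siTRPC1 and control cells were small, and 1 probe of the 47 tested passed the test across all probes. That probe reads CYP4F3, which was higher in siTRPC1 cells (1 of 47, 2.1%, against 1.25% of all 13102 probes tested, 103 higher of 164, or 62 of 121 with each array centred on its median). With all 12 arrays 2 passed, CYP4F3 and SULT2A1 (against 1.58% of all probes). At an unadjusted p under 0.05, 8 of 47 were higher and 1 was lower, where 9.17% and 7.69% of all probes were. The 5 siTRPC1 and 5 control values did not overlap for 4 probes, CYP4F3, SULT2A1, GSTK1 and GSTA1, all higher in siTRPC1 cells (8.5%, against 2.08% of all probes), and 0 were apart in the lower direction (against 1.77%). Over all 12 arrays 3 of these 4 stayed apart, the exception being GSTK1 (6.4%, against 1.11%). The differences ranged from -0.24 to 0.47 with a median of 0.07 (all probes, -0.00, with 5% to 95% of them between -0.29 and 0.31), and 30 of 47 were above 0 (63.8%, all probes 49.3%). These tallies hold UGT2B4 and both UGT2B11 probes, which were detected on more siTRPC1 than control arrays, so they are not free of the filter. Over the 43 probes detected on all 12 arrays, 26 were above 0 (60.5%, against 48.9% of the 11422 such probes), with a median of 0.06, and 7 were higher and 1 lower at an unadjusted p under 0.05 (16.3% and 2.33%, against 9.4% and 8.19%). The SD within a group had a median of 0.12 in siTRPC1 and 0.13 in control samples over the 47 probes (all probes, 0.14 and 0.16). The median standard error was 0.09, and for 38 of the 47 probes the 95% interval lay within 0.5 of 0 on the log2 scale. Because RNA was taken from whole cultures, a higher level cannot be told apart from a larger share of cells that express the gene.

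**Figure D2:**
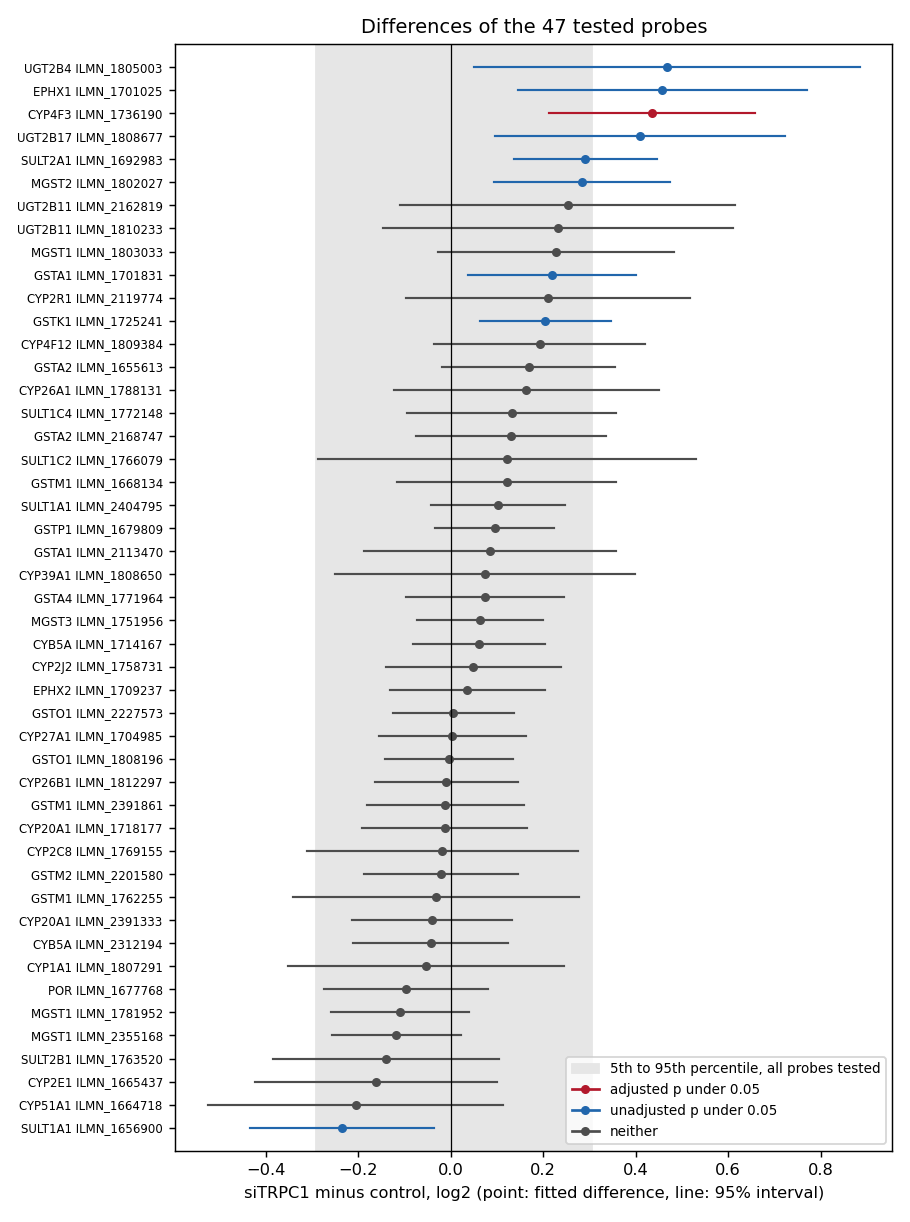
Fitted siTRPC1 minus control difference on the log2 scale (horizontal axis) with its 95% interval for the 47 tested probes (rows, sorted by difference), from 5 siTRPC1 and 5 control arrays. CYP4F3 alone is past adjusted p 0.05 (red), 8 others are past an unadjusted p of 0.05 (blue), and the grey band holds the 5th to 95th percentile of all probes tested, -0.29 to 0.31.

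CYP4F3, an omega-hydroxylase that inactivates leukotriene B4 and also acts on fatty acids, had 8.65, 8.74, 8.59, 8.84 and 8.81 in siTRPC1 samples 1 to 4 and 6, against 8.37, 8.46, 8.19, 8.18 and 8.25 in control samples 1 to 4 and 6. Each siTRPC1 value lay above each control value. These are values of ILMN_1736190. The gene's other probe, ILMN_2089484, was detected on 0 arrays, and binding of either to other CYP4F genes was not tested. The means were 8.73 ± 0.11 in siTRPC1 and 8.29 ± 0.12 in control samples (SD, n = 5 each), a difference of 0.44 ± 0.11 (SE) or 1.35-fold (95% interval 0.21 to 0.66, limma adjusted p = 0.0479). Replicate 5 had 8.50 in siTRPC1, the lowest of that group, and 8.40 in control, still with no overlap, and with all 12 arrays the difference was 0.38 (adjusted p = 0.0480). The call lies at the threshold: it was kept in 1 of 10 fits with 1 array left out, that without control 2 (adjusted p = 0.0499), and lost in the other 9 (0.0526 to 0.130), while the difference stayed between 0.41 and 0.48. It was also lost when adjoining replicates of a group were paired as a random block (limma adjusted p = 0.152). Its neighbour CYP4F12, another omega-hydroxylase, had 9.39, 9.53, 9.77, 9.71 and 9.75 in siTRPC1 samples and 9.60, 9.52, 9.10, 9.31 and 9.66 in control samples. The groups overlapped, and the difference of 0.19 ± 0.11 did not pass (adjusted p = 0.383).

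SULT2A1, the hydroxysteroid sulfotransferase, had 10.44, 10.36, 10.38, 10.35 and 10.44 in siTRPC1 samples, against 10.16, 10.05, 10.23, 10.05 and 10.01 in control samples. The groups did not overlap, and replicate 5 fell on the same sides (10.30 in siTRPC1 and 9.99 in control). The means were 10.39 ± 0.042 in siTRPC1 and 10.10 ± 0.091 in control samples (SD, n = 5 each), a difference of 0.29 ± 0.075 (SE) or 1.22-fold, which just missed the threshold with 10 arrays (adjusted p = 0.0528) and passed it with 12 (adjusted p = 0.0217). The other steroid sulfotransferase detected, SULT2B1, had a difference of the opposite sign (-0.14 ± 0.12, adjusted p = 0.579), with overlapping groups.

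GSTK1, a GST of mitochondria and peroxisomes, had 12.09, 12.18, 12.01, 12.32 and 12.12 in siTRPC1 samples, against 11.95, 12.01, 11.84, 11.92 and 11.97 in control samples. The groups only just stayed apart, with siTRPC1 3 and control 2 both at 12.01 after rounding, and control 5, outside the fit, lay within the siTRPC1 values at 12.14. The difference was 0.20 ± 0.069 (SE, adjusted p = 0.135). GSTA1, an alpha-class GST abundant in hepatocytes, was read by 2 probes. The first had 9.27, 9.18, 9.36, 9.30 and 9.27 in siTRPC1 samples and 9.14, 9.03, 9.03, 9.13 and 8.96 in control samples, which did not overlap (0.22 ± 0.088, adjusted p = 0.206), also not with replicate 5 (9.28 in siTRPC1 and 8.84 in control). The second probe overlapped and differed by 0.08 ± 0.13 (adjusted p = 0.785). For the 4 members that were apart, an exact two-sided permutation test gives the smallest p that 5 against 5 arrays allow, 0.00794, which the lack of overlap by which they were picked already fixes.

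**Figure D3:**
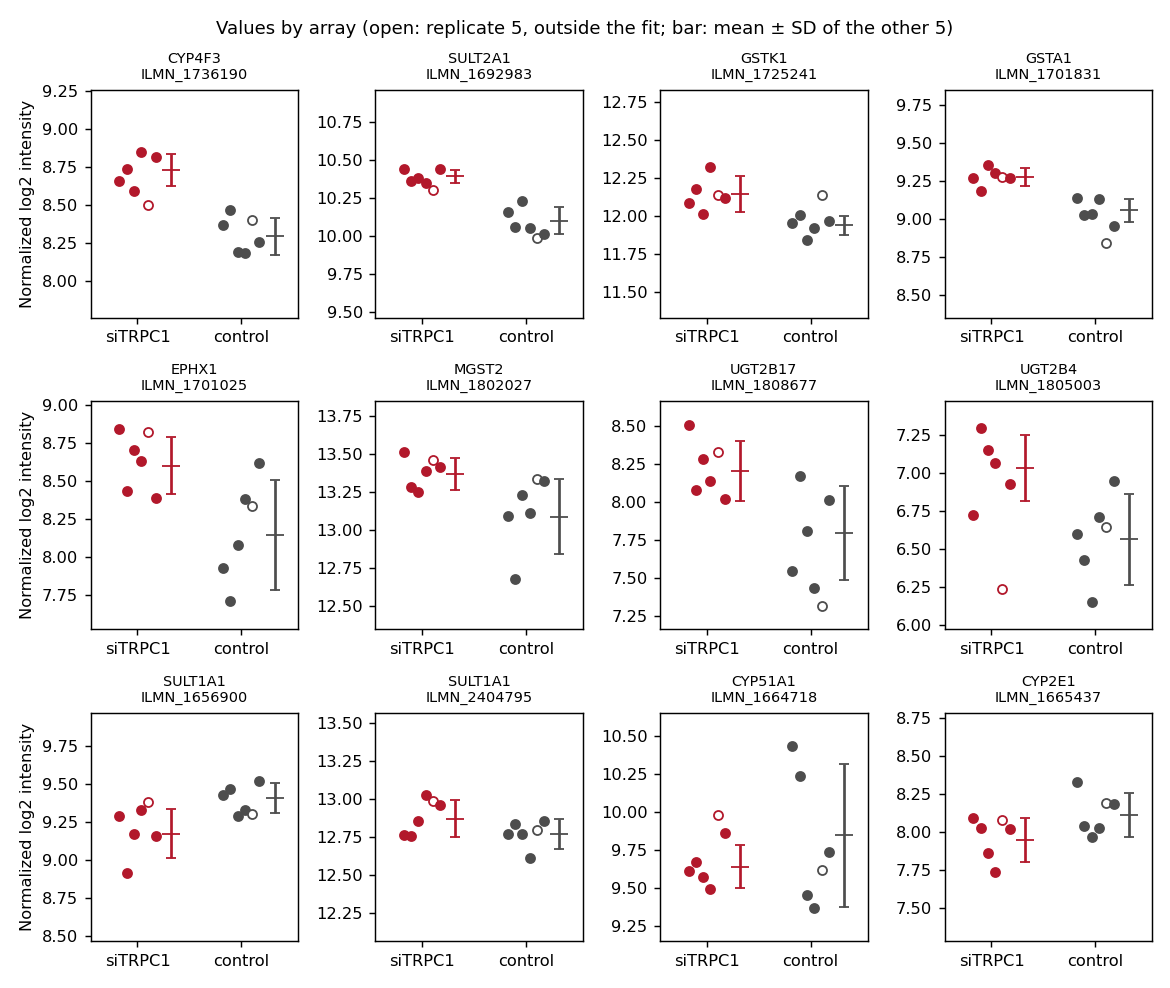
Normalized log2 intensity (vertical axis, the same span in each panel) of 12 probes in siTRPC1 (red, left) and control (grey, right) samples, 1 point per array, with the mean ± SD of the 5 arrays in the fit beside them and replicate 5 as an open point. The CYP4F3, SULT2A1, GSTK1 and GSTA1 panels show no overlap of the filled points, and control 1 and control 2 stand low for EPHX1 and high for CYP51A1.

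The promoter windows of these 4 members are shown because they are the members whose groups did not overlap. The windows are RefSeq's, from 250 bases before to 50 bases after the start of the gene in GRCh38.p14, each 5′ to 3′ on the strand of the gene, and such a window was matched for 79 of the 103 genes. Capitals mark matches on either strand to 4 motifs: TATAAA (the TATA box), GCGTG (the core bound by AHR with ARNT), TGACNNNGC (the antioxidant response core bound by NFE2L2) and AGGTCA (the nuclear receptor core).
CYP4F3, chr19:15641062-15641361, plus strand: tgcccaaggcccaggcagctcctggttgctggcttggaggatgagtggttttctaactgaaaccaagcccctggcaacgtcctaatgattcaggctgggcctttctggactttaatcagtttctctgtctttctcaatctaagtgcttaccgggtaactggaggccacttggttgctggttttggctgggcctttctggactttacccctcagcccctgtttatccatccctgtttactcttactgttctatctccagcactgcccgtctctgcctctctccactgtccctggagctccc
SULT2A1, chr19:47886266-47886565, minus strand: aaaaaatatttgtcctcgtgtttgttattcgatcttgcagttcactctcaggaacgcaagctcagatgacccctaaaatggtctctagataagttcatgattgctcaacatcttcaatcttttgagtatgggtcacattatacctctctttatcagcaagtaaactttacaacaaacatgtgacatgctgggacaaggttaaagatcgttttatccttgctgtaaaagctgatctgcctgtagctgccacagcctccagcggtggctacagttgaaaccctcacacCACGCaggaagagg
GSTK1, chr7:143263191-143263490, plus strand: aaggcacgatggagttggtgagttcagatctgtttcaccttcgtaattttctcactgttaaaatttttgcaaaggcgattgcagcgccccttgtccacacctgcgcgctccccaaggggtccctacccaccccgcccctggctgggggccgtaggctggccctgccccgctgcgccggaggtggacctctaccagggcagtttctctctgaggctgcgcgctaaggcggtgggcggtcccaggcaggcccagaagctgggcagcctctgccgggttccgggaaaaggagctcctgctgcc
GSTA1, chr6:52803767-52804066, minus strand: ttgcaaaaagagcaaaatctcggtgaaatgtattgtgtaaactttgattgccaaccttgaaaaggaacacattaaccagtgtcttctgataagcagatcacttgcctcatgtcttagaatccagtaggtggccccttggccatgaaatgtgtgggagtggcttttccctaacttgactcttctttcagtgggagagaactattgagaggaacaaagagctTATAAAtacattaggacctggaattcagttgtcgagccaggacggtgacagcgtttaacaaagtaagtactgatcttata
Neither the CYP4F3 nor the GSTK1 window holds a match to any of the 4 motifs. The SULT2A1 window holds 1, GCGTG on the reverse strand at bases 287 to 291, after the start. The GSTA1 window holds a TATAAA at bases 221 to 226, which begins 30 bases before the start. Over 35116 RefSeq windows of this length, TATAAA was in 11.5%, GCGTG in 36.5%, TGACNNNGC in 13.3% and AGGTCA in 13.8%. No motif was thus shared by these 4 windows, and a match describes letters only, not binding.

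Of the 5 other members at an unadjusted p under 0.05, 4 were higher in siTRPC1 cells, and in these the SD was 0.11 to 0.22 in siTRPC1 and 0.25 to 0.36 in control samples, larger in the control group for each. EPHX1, the microsomal epoxide hydrolase, had 8.84, 8.44, 8.71, 8.64 and 8.39 in siTRPC1 samples, against 7.93, 7.71, 8.08, 8.39 and 8.62 in control samples. The difference was 0.46 ± 0.15 (SE, adjusted p = 0.131). The 2 lowest values were control 1 and control 2, the arrays of low mean signal, and without this pair it was 0.24 ± 0.14 (adjusted p = 0.487), whereas without control 6 it passed (0.58, adjusted p = 0.0377). MGST2, a membrane enzyme that can make leukotriene C4, had 13.51, 13.28, 13.25, 13.39 and 13.42 in siTRPC1 samples and 13.09, 12.68, 13.23, 13.11 and 13.32 in control samples (0.28 ± 0.091, adjusted p = 0.124). Here too control 2 was lowest, and without control 1 and control 2 the difference was 0.15 (adjusted p = 0.388).

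UGT2B17, which glucuronidates androgens, had 8.51, 8.08, 8.28, 8.14 and 8.02 in siTRPC1 samples, against 7.54, 8.17, 7.81, 7.44 and 8.01 in control samples. Only control 2 lay among the siTRPC1 values, and the difference was 0.41 ± 0.15 (SE, adjusted p = 0.170), or 0.51 with all 12 arrays (adjusted p = 0.0692). UGT2B4, a bile acid transferase, had 6.72, 7.30, 7.15, 7.07 and 6.93 in siTRPC1 samples, and 6.60, 6.43, 6.15, 6.71 and 6.94 in control samples (0.47 ± 0.20, adjusted p = 0.241). It was detected on 4 siTRPC1 arrays and 1 control array, so it passed the detection filter through the siTRPC1 samples, and siTRPC1 5 had 6.24. Likewise the 2 probes of UGT2B11 were detected on 5 siTRPC1 arrays each and on 3 and 2 control arrays, with differences of 0.23 and 0.25 (adjusted p = 0.545 and 0.481). For the UGT2B genes the sign over all 4 tested probes is therefore not free of the filter.

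On the lower side 1 probe reached an unadjusted p under 0.05. SULT1A1, read by ILMN_1656900, had 9.29, 8.92, 9.18, 9.33 and 9.16 in siTRPC1 samples, against 9.43, 9.47, 9.29, 9.33 and 9.53 in control samples (-0.24 ± 0.096 SE, adjusted p = 0.219). A second probe of the gene, ILMN_2404795, did not share this sign, with 12.76, 12.75, 12.85, 13.02 and 12.96 in siTRPC1 samples and 12.77, 12.83, 12.77, 12.61 and 12.85 in control samples (0.10 ± 0.070, adjusted p = 0.472). MGST1, which protects membranes from lipid peroxides, likewise had probes of both signs: 2 differed by -0.11 and -0.12 (adjusted p = 0.456 and 0.384) and 1 by 0.23 (adjusted p = 0.356). In all, 9 genes had several tested probes, and in 5 of them these differed in sign.

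CYP51A1, of cholesterol synthesis, had 9.61, 9.67, 9.57, 9.49 and 9.86 in siTRPC1 samples, against 10.44, 10.23, 9.46, 9.37 and 9.74 in control samples. Its difference of -0.21 ± 0.15 (SE, adjusted p = 0.524) rested on control 1 and control 2, without which it turned to 0.12 ± 0.10 (adjusted p = 0.682). CYP2E1 had 8.09, 8.03, 7.86, 7.74 and 8.02 in siTRPC1 samples and 8.33, 8.04, 7.97, 8.03 and 8.18 in control samples, which overlapped (-0.16 ± 0.13, adjusted p = 0.543). Among the other detected xenobiotic CYPs, CYP1A1 differed by -0.05 ± 0.14, CYP2C8 by -0.02 ± 0.14 and CYP2J2 by 0.05 ± 0.091, none past the test (adjusted p = 0.882, 0.966 and 0.826). CYP1A1, a sensitive target of AHR, had a 95% interval of -0.35 to 0.25. The retinoic acid hydroxylases CYP26A1 (0.16 ± 0.14) and CYP26B1 (-0.01 ± 0.074), the sterol hydroxylase CYP27A1 (0.00 ± 0.077) and the vitamin D hydroxylase CYP2R1 (0.21 ± 0.15) did not pass either (adjusted p 0.491 to 0.987).

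The electron donors POR and CYB5A were close between groups. FDX1, on the list of electron donor genes below, was detected on 0 arrays, so its level was not tested. POR had 9.99, 9.77, 10.13, 10.03 and 9.80 in siTRPC1 samples and 10.06, 10.05, 9.93, 10.09 and 10.07 in control samples (-0.10 ± 0.085 SE, 95% interval -0.27 to 0.08, adjusted p = 0.602). The 2 probes of CYB5A differed by 0.06 ± 0.069 and -0.04 ± 0.081 (adjusted p = 0.696 and 0.825), and EPHX2, the soluble epoxide hydrolase, by 0.04 ± 0.081 (95% interval -0.13 to 0.20, adjusted p = 0.859). The probes of GSTP1, the pi-class GST (0.10 ± 0.062), and GSTO1, which can reduce dehydroascorbate (-0.00 ± 0.067 and 0.01 ± 0.063), did not pass (adjusted p = 0.449, 0.983 and 0.975). Differences of the 5 tested GSTA probes were all above 0 (0.07 to 0.22), and 1 of those of the 4 tested GSTM probes was (-0.03 to 0.12). None of the GSTA or GSTM probes passed the test.

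**Figure D4:**
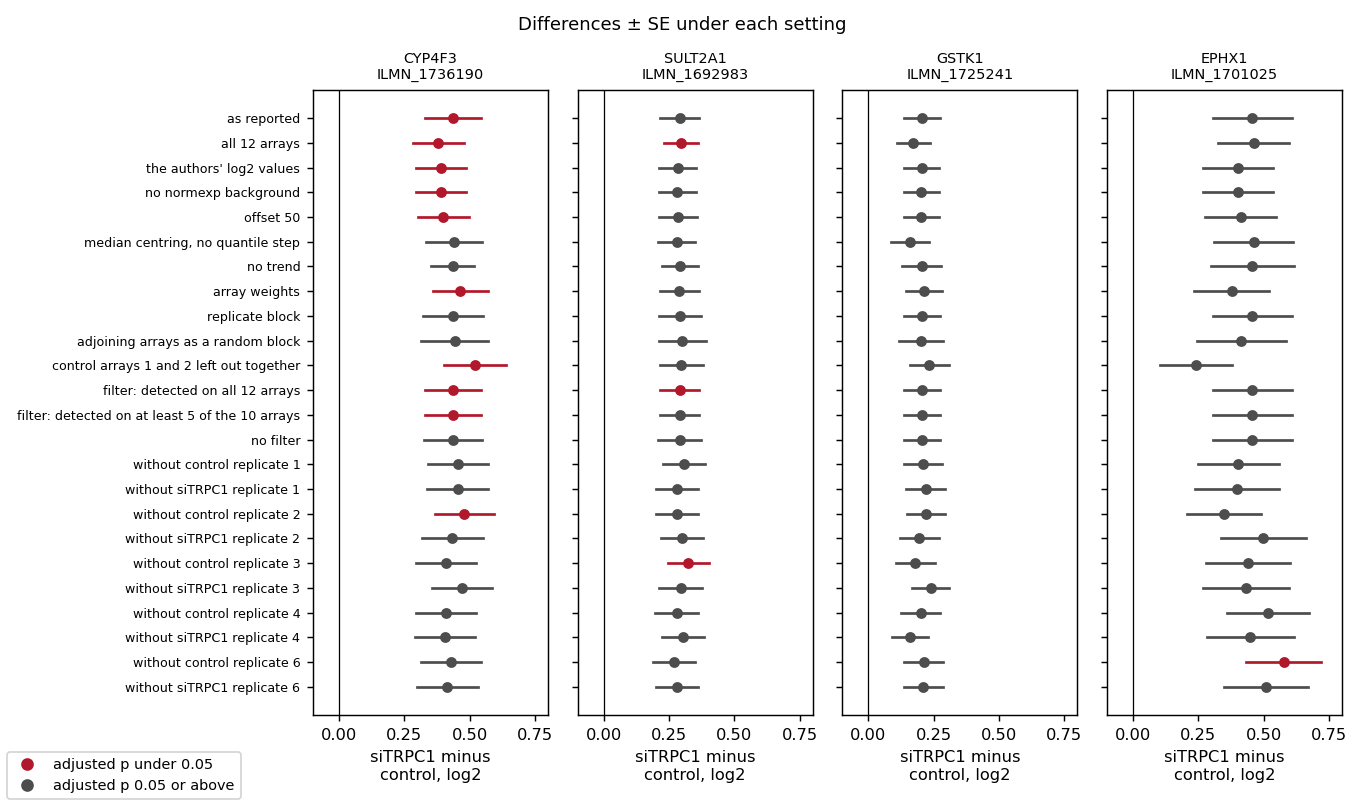
Fitted siTRPC1 minus control difference ± SE on the log2 scale (horizontal axis) of CYP4F3, SULT2A1, GSTK1 and EPHX1 under each processing setting (rows), red where the adjusted p was under 0.05. The 4 differences stay above 0 in every row, CYP4F3 passes in 8 of the 14 settings other than the reported one and those that leave out 1 array (1 of the 14, the methods' own test after adjustment, which CYP4F3 did not pass, has no SE and is not drawn), and EPHX1 is smallest without control 1 and control 2 (0.24).

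Genes that regulate or supply these enzymes were examined as 4 lists. Of 21 receptors and transcription factors with a probe, 12 were detected, among them AHR, RXRA, CEBPA and NFE2L2, and 0 were called. ARNT, the partner of AHR, NR1I3, the constitutive androstane receptor that controls CYP2B6, and PPARA, which controls CYP4A genes, were not detected. Of the electron donor and haem genes 6 of 7 were detected and 0 called, and of 36 other phase I and phase II enzymes 21 were detected and 0 called. The alcohol dehydrogenases ADH1A, ADH1B, ADH1C and ADH4 were not detected. Nor was STS, a steroid sulfatase that the study called lower in silenced cells by Rank Product analysis. Its probe was detected on 0 arrays and so was not tested here. Of the 9 genes that supply cosubstrates 8 were detected, and UGDH was called lower. This was 1 of the 64 probes tested in the 4 lists (1.56%, against 1.25% of all probes). UGDH, which makes the UDP-glucuronic acid that UGT1 and UGT2 enzymes use, averaged 11.85 in siTRPC1 and 12.20 in control samples (-0.35 ± 0.083 SE, adjusted p = 0.0407, and 0.0201 with all 12 arrays). The glutathione genes GCLC (-0.21), GCLM (-0.14 and 0.11), GSS (0.07) and GSR (-0.09) and the sulfate donor genes PAPSS1 (0.10 and -0.13) and PAPSS2 (-0.04) did not pass. Over the detected genes of the 4 lists the median difference was -0.02, -0.03, -0.06 and 0.00 in the order given here for regulators, electron donors, cosubstrates and other enzymes.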

How the data were processed

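RNA of 6 siTRPC1 and 6 control Huh7 samples was measured on Illumina bead arrays. The deposited intensities are linear signals from which, per the authors' methods, GenomeStudio had subtracted background, with no normalization between arrays. A detection p-value per probe and array, as deposited, sets its signal against the array's negative controls. The authors' log2 values came from lumi (version not given in the sources used here), quantile-normalized, and served as an alternative.

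The neqc function (limma 3.58.1, R 4.3.3) was used for background, estimated by normexp from the detection p-values, an offset of 16 and quantile normalization of all 12 arrays. The 13102 probes detected on at least 5 of 12 arrays were tested with lmFit and eBayes with a trend, group as the single term, on the 10 arrays of the study's methods, with Benjamini-Hochberg adjustment over all of them. Adjusted p-values are from this fit, called under 0.05, and exact permutation tests are two-sided. The fit was tested on simulated data. Tables and plots were made with numpy 2.4.6, pandas 2.3.3 and matplotlib 3.10.9.

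The members, lists, named genes and tests were chosen with earlier results of these data known. Named genes are the called probes, those with an unadjusted p under 0.05, the 6 largest differences in each direction, those whose groups do not overlap, genes whose probes differ in sign and lie over 0.3 apart, the 4 partners, and a list of well-known enzymes for detection. Gene names are those of the platform annotation, and the 13 probes it gives several gene symbols were not used. Pseudogenes were recognised by their RefSeq biotype or by a symbol ending in P with or without a number, with GSTP1 kept. The count of arrays per group bounds the precision. No slide or batch is stated, and none was modelled. Alternatives changed the arrays, values, background, offset, normalization, filter, spread, weights, blocks and test.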

Additional observations from a re-analysis of the deposited data

Results flagged for a closer look

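Among 40 groups of 6 arrays examined for the named probes, 2 held an array that stood apart from the other 5 by its gap to them relative to the range of the group, and chance gives this in about 1 of 20 groups. MGST2 was 12.68 in control 2, below the 13.09 to 13.34 of the other control samples. The SULT1A1 probe ILMN_2404795 was 12.61 in control 4, below the 12.77 to 12.85 of the other control samples. Control 2 is also an array of low mean signal, and its part in the MGST2 value was not tested beyond the fits without it.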

How the results depend on the processing

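With the 10 arrays of the study, 1 member was called. The count was 2 with all 12 arrays and with the filter at detection on all 12 arrays (CYP4F3 and SULT2A1 in both). It was 0 with median centring, without the trend, with a replicate block and without a filter. It was also 0 with a random block and by Student's t-test, the methods' test for 2 groups, after Benjamini-Hochberg adjustment. The random block paired replicates 1 with 2 and 3 with 4 within a group (correlation 0.327). Rank Product analysis, by which the study called genes on the arrays, was not run here. The methods' t-test at an unadjusted p of 0.05 gave 9 (8 higher, 1 lower), and 1908 of all probes. Leaving out single arrays gave 0 to 1: CYP4F3 without control 2, SULT2A1 without control 3, EPHX1 without control 6, and 0 without each of the other 7. CYP4F3 had an adjusted p of 0.0277 to 0.183 over all settings. With the replicate block, which had no support as a pairing (same-numbered samples correlated by -0.05 to 0.01 in their deviations), its adjusted p was 0.0737. With the random block the adjusted p was 0.152 for CYP4F3 and 0.169 for SULT2A1. Over all probes, calls numbered 164, but 17 without the trend, 30 with the random block, 34 without a filter, 4 by the adjusted t-test, and 37 (without siTRPC1 3) to 306 (without control 6). TRPC1, with a difference of -0.183, passed by the methods' t-test without adjustment, and its adjusted p stayed above 0.05 in each other setting. Without control 1 and control 2, CYP51A1 turned to 0.120 and CYB5A ILMN_2312194 to 0.00475, the 2 reversals among 299 values of the named probes (281 on the same side of the threshold, 6 no longer past it, 10 newly past it), and with 1 array left out 0 of 200 reversed. The count of 36 detected genes was 33 to 46 under other thresholds and 35 to 36 with 1 array left out. The cause of these changes was not tested. Detection limits the rest: 58 genes have no probe over the threshold on any array, and 9 have one on 1 to 4 arrays.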
